A study of Mus musculus with 16 samples.

Results

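Hepatocytes divide their work along the liver lobule, and 10 genes whose mRNA marks that division were followed here over 4 mouse genotypes. They were taken by name from 18209 named genes: 6 genes of the pericentral hepatocytes (Glul, Oat, Slc1a2, Rhbg, Axin2 and Tbx3) and 4 of the periportal hepatocytes (Gls2, Hal, Sds and Hsd17b13). All 10 were among the 15781 genes with enough reads to be tested, so no member was lost to the filter on low counts. The rule takes these genes by name and uses no level or difference, but the list was drawn up with earlier results of these data known.

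RNA from 16 whole livers of mice that the labels give as male and 20 days old was sequenced, with 4 livers per genotype. All mice carried floxed alleles of Trsp, the gene of the selenocysteine tRNA that every selenoprotein needs for its synthesis. Trspfl/fl livers kept Trsp and normal KEAP1 and are called control livers. Trspfl/fl::AlbCre livers (Trsp knockout livers) lacked Trsp where Cre under the albumin promoter was active, that is in hepatocytes, so that other liver cells kept it. Keap1C226SC613Shomo::Trspfl/fl livers (Keap1 mutant livers) kept Trsp and were homozygous for KEAP1 with serine in place of the sensor cysteines C226 and C613. Keap1C226SC613Shomo::Trspfl/fl::AlbCre livers (compound mutant livers) joined both changes. Nothing in the labels says how the mice were related or which day each liver was taken. The p-values of the comparisons set differences of group means against the spread of livers within genotypes.

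The libraries held 11324756 to 19106210 recovered reads (median 15449260). Trsp RNA itself was not analysed here, and the knockout was checked through Gpx1, a selenoprotein mRNA: its normalized counts were 8692 to 18758 in control livers, 2759 to 4060 in Trsp knockout livers, 10372 to 15836 in Keap1 mutant livers and 2888 to 3699 in compound mutant livers. All 8 livers with AlbCre lay below all 8 without it. One library stood apart from its label: compound mutant replicate 1 held 28798 reads of Xist, the RNA of the inactive X chromosome, against 22 to 50 reads in the other 15, and 2 reads of Y-linked genes against 1830 to 3066. Most differences of the members that rest on the compound mutant livers are therefore given without it too, in the same passage or together after the members. The same holds for the counts and medians of several gene lists. Marker sums, correlations of single pairs and most single genes of the lists are given with it.

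A liver lobule runs from the portal vessels, where oxygen-rich blood enters, to the central vein, where it leaves. Hepatocytes next to the central vein receive Wnt ligands from the vein's endothelium, and the β-catenin signal that follows keeps a pericentral programme on, in which ammonium that escaped the periportal side is fixed into glutamine. Periportal hepatocytes take up amino acids, release their nitrogen for the urea cycle and make glucose. The opposed gradients mean that a whole-liver sample shows the sum over the lobule, in which fewer cells of one zone and less RNA per cell cannot be told apart.

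Since several members are known Wnt targets, the sequence before their start sites was read for the letters CTTTGA on either strand. They are a form of the core at which the TCF/LEF partners of β-catenin bind. RefSeq windows (GRCm38.p6) of 250 bases before the start were at hand for 6 members, Glul, Oat, Slc1a2, Axin2, Hal and Hsd17b13. Shown are Glul, the member with the lowest adjusted p for the averaged knockout, Oat and Slc1a2, which went together from liver to liver as described further on, and the 2 periportal members with a window, 5′ to 3′ on the strand of the gene with the searched letters in capitals, read as TCAAAG where they lie on the opposite strand. They lie at chr1:153899679-153899928 (+ strand) for Glul, chr7:132576399-132576648 (- strand) for Oat, chr2:102706188-102706437 (+ strand) for Slc1a2, chr10:93488518-93488767 (+ strand) for Hal and chr5:103977389-103977638 (- strand) for Hsd17b13.
Glul: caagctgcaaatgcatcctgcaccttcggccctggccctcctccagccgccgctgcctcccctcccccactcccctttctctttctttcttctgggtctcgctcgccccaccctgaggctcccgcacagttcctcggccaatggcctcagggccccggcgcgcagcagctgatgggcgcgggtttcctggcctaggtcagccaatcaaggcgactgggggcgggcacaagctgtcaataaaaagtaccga
Oat: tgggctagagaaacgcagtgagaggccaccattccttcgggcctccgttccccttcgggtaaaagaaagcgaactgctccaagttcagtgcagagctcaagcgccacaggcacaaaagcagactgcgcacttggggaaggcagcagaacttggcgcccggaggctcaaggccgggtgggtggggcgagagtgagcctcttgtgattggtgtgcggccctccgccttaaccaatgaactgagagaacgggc
Slc1a2: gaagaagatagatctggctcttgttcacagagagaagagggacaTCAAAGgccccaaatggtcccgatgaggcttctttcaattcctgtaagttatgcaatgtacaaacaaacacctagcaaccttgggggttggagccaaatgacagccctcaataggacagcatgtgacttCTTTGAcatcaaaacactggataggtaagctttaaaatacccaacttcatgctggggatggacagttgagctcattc
Hal: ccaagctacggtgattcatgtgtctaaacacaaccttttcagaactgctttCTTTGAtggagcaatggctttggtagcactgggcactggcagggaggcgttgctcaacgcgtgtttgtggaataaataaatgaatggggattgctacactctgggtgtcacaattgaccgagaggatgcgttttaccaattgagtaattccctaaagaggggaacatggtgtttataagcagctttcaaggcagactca
Hsd17b13: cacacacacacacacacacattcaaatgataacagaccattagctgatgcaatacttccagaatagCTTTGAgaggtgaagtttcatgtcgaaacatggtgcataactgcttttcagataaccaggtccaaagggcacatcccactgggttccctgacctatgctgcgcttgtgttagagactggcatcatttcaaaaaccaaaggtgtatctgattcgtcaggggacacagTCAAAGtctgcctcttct

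The letters were found in 3 of the 6 windows. Slc1a2 holds them at positions -206 and -77 counted from the start site, Hsd17b13 at -184 and -18, and Hal at -199, each position being that of the first of the 6 letters. They are not in the windows of Glul, Oat and Axin2. Of all 32851 promoter windows of the same length, 4544 (13.8%) hold the letters on either strand. A match is a description of letters, not of a site in use. Windows of Rhbg, Tbx3, Gls2 and Sds were not used here.

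Hepatocyte transcripts were abundant in all 16 livers. All 5 hepatocyte markers (Alb, Ttr, Apoa1, Tat and Cps1) were measured in every group, with summed normalized counts of 1458500 to 1789500 in control livers, 1433800 to 1790000 in Trsp knockout livers, 1676200 to 2031600 in Keap1 mutant livers and 798330 to 1579600 in compound mutant livers. In the knockout comparison with mutant KEAP1, 4 of these 5 markers were lower, with a median log2 difference of -0.47 (-0.32 without compound mutant replicate 1), and 0 of 5 passed the test. The sum of the 5 markers of the central vein endothelium, which includes the Wnt ligands Wnt2 and Wnt9b and their enhancer Rspo3, was 638 to 753 in control livers, 428 to 782 in Trsp knockout livers, 443 to 680 in Keap1 mutant livers and 349 to 747 in compound mutant livers. This sum joins markers that moved apart. In the knockout with mutant KEAP1, Wnt2 had a log2 difference of -0.77 and Wnt9b of 0.72. Between compound mutant and Trsp knockout livers, Wnt2 had -1.22 and Wnt9b -0.08. None of these differences passed the test. The 4 neutrophil markers (S100a8, S100a9, Ngp and Camp) summed to 189 to 1102, 167 to 378, 416 to 1198 and 573 to 1965 in the same order of groups, and all 4 were higher in compound mutant than in Trsp knockout livers (median log2 difference 2.06, 4 at an unadjusted p under 0.05, 0 passing the test, and a median of 2.13 without compound mutant replicate 1). The sums of the Kupffer, stellate, sinusoidal endothelial and bile duct cell markers overlapped between all genotypes. The part of these cells in the results below was not tested.

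Levels below are log2 levels, log2(normalized count + 4) as deposited, and differences are log2 differences with their standard error (SE) and 95% confidence interval (CI) from limma fitted to all tested genes. A gene passed the test at a log2 difference beyond 1 in either direction with a Benjamini-Hochberg adjusted p under 0.01.

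No member passed the test in any comparison. In the Trsp knockout with normal KEAP1, 0 of 10 passed, where 0.215% of all genes did. With mutant KEAP1, the knockout also gave 0 of 10, against 0.171% of all genes. The KEAP1 mutation gave 0 of 10 without AlbCre (0.0127% of all genes) and 0 of 10 with AlbCre (0.57%). The difference between the 2 knockout effects gave 0 of 10 (0.057%), as did the knockout effect averaged over both Keap1 genotypes (0.266%) and the averaged KEAP1 effect (0.482%). With limma voom run on the recovered reads the counts were likewise 0 in all 7 comparisons. At an unadjusted p under 0.05, limma gave 2, 3, 1, 4, 2, 2 and 3 members in the same order, where 11, 13.6, 9.07, 17.6, 10.8, 13.8 and 16.1% of all genes reached it. The intervals below give the sizes of difference that the data allow.

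**Figure D1:**
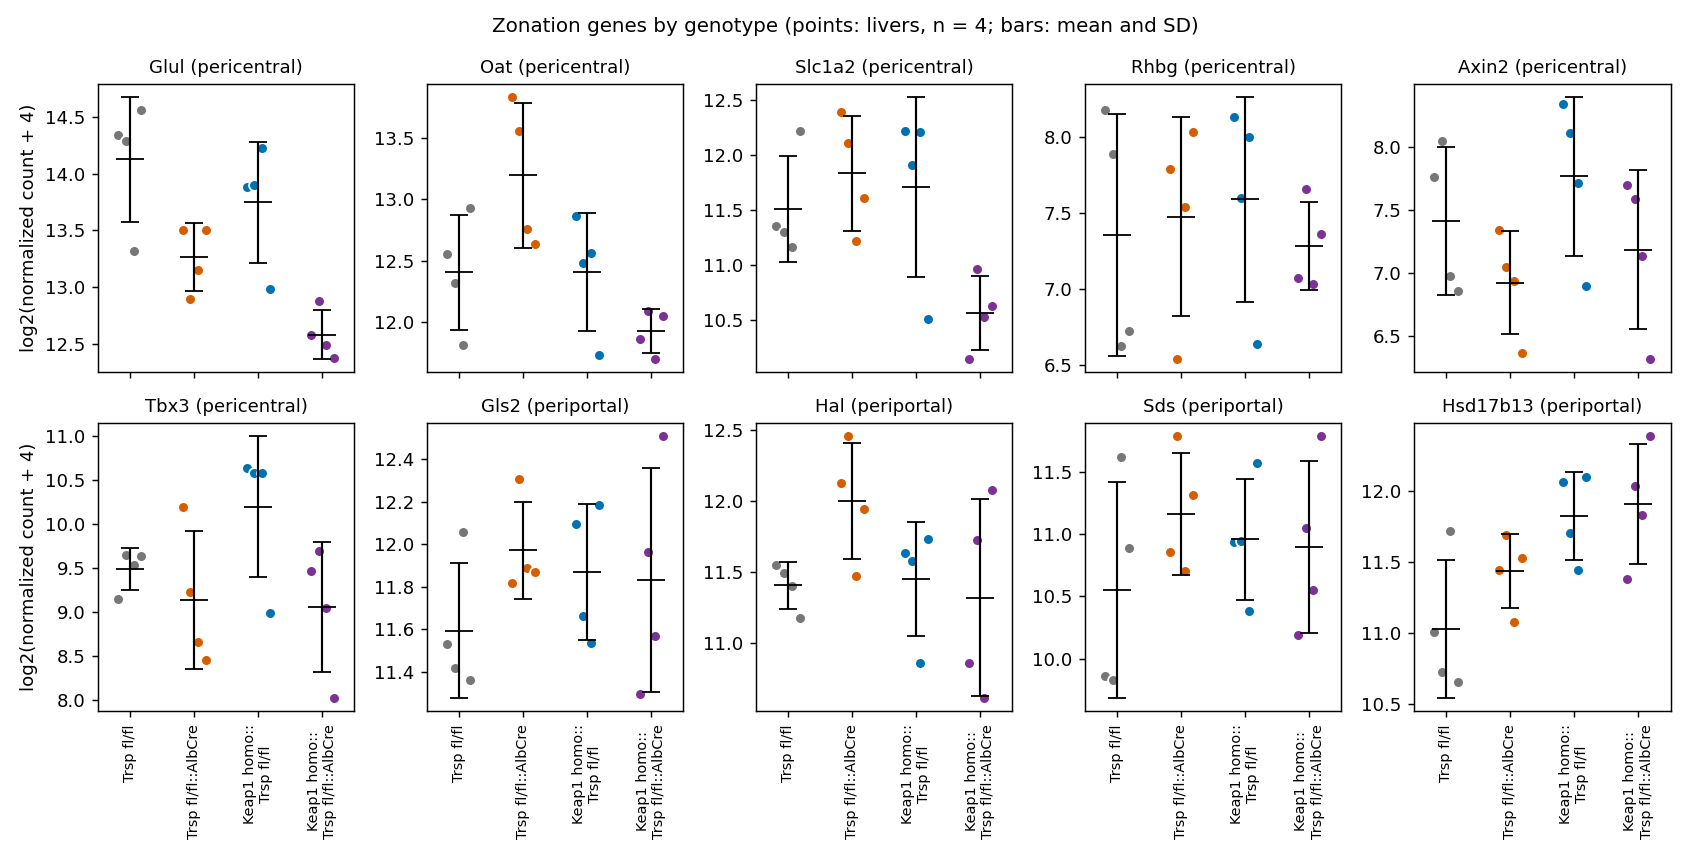
Log2(normalized count + 4) of the 10 zonation genes in each of 16 livers, in 1 panel per gene, with genotypes on the horizontal axis (Keap1 homo stands for Keap1C226SC613Shomo). Points are livers, black bars the mean and SD of 4 livers. All 4 compound mutant livers have Glul levels (12.38 to 12.88) below those of the other 12 livers.

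Glul encodes glutamine synthetase, which joins ammonium to glutamate in the layer of hepatocytes around the central vein. Its log2 levels (ENSMUSG00000026473) were 14.34, 14.29, 13.32 and 14.56 in control livers and 13.50, 12.90, 13.15 and 13.51 in Trsp knockout livers. They were 13.88, 13.90, 14.23 and 12.99 in Keap1 mutant livers and 12.58, 12.88, 12.49 and 12.38 in compound mutant livers. Both knockout groups had means below those of their own controls. With mutant KEAP1 they did not overlap, which held for Glul as the 1 member of 10 and for 7.69% of all genes. They overlapped with normal KEAP1, where control replicate 3 lay inside the range of the Trsp knockout livers. The groups' means and SDs (n = 4) were 14.13 ± 0.55, 13.27 ± 0.30, 13.75 ± 0.53 and 12.58 ± 0.21, and in normalized counts the means were 18769, 9993, 14390 and 6178.

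With normal KEAP1, the log2 difference of Glul was -0.86 (SE 0.28, 95% CI -1.45 to -0.28, adjusted p = 0.23), a 1.82-fold lower level. With mutant KEAP1 it was -1.16 (SE 0.28, 95% CI -1.75 to -0.58, adjusted p = 0.0661), 2.24-fold lower. The 2 knockout effects did not differ detectably from each other (log2 difference of differences -0.30, SE 0.39, adjusted p = 0.789). Averaged over both Keap1 genotypes, Glul was 2.02-fold lower in knockout livers (-1.01, SE 0.19, 95% CI -1.43 to -0.60, adjusted p = 0.0148), just outside the adjusted p that the test asked for. It passed when either of 2 livers without AlbCre was left out, control replicate 3 (-1.15, adjusted p = 0.0021) or Keap1 mutant replicate 4 (-1.14, adjusted p = 0.0030). At an adjusted p under 0.05 it was among the 0.551% of all genes that passed with the minimum fold and the 1.66% that passed without it. Without compound mutant replicate 1 the average effect was -1.01 with an adjusted p of 0.026.

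The KEAP1 mutation by itself gave Glul a log2 difference of -0.38 (SE 0.28, adjusted p = 0.708) without AlbCre. Single livers moved this value from -0.65 (without control replicate 3) to -0.13 (without Keap1 mutant replicate 4). With AlbCre it gave -0.68 (SE 0.28, adjusted p = 0.21), and the 2 groups did not overlap. Compound mutant livers thus held both the lowest 4 Glul levels of the series and the smallest spread, an SD of 0.21.

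Oat encodes ornithine aminotransferase, a mitochondrial enzyme that links ornithine with glutamate and is restricted to pericentral hepatocytes in the liver. Oat log2 levels (ENSMUSG00000030934) were 12.55, 12.32, 11.82 and 12.93 in control livers and 13.83, 13.56, 12.76 and 12.64 in Trsp knockout livers. In Keap1 mutant livers they were 12.87, 12.48, 12.56 and 11.73, and in compound mutant livers 11.86, 12.09, 11.70 and 12.05. Of the Trsp knockout livers, 2 (13.83 and 13.56) lay above all 14 other livers and the other 2 overlapped with control livers, and the compound mutant livers lay below every Trsp knockout liver.

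The knockout effect on Oat had opposite signs in the 2 Keap1 genotypes. With normal KEAP1 the log2 difference was 0.79 (SE 0.29, 95% CI 0.17 to 1.41, adjusted p = 0.299), 1.73-fold higher. With mutant KEAP1 it was -0.48 (SE 0.29, adjusted p = 0.504). The difference between these effects was -1.27 (SE 0.41, 95% CI -2.15 to -0.40), and with an adjusted p of 0.359 it did not pass. Among livers with AlbCre, the KEAP1 mutation gave -1.27 (SE 0.29, 95% CI -1.89 to -0.65, adjusted p = 0.0338), 2.41-fold lower with no overlap. At an adjusted p under 0.05, which 1.2% of all genes met with the minimum fold and 2.07% without it, Oat passed in this comparison. That adjusted p ranged from 0.022 to 0.12 when each liver was left out in turn, and was 0.092 without compound mutant replicate 1. Livers without AlbCre had equal mean levels, with a log2 difference of 0.00 (SE 0.29).

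Slc1a2 encodes the glutamate transporter GLT-1, which brings glutamate into the cells that make glutamine. Slc1a2 log2 levels (ENSMUSG00000005089) were 11.36, 11.30, 11.17 and 12.22 in control livers and 12.39, 12.11, 11.22 and 11.61 in Trsp knockout livers. They were 12.22, 11.91, 12.21 and 10.51 in Keap1 mutant livers and 10.15, 10.97, 10.53 and 10.63 in compound mutant livers. As for Oat, all compound mutant livers were below all Trsp knockout livers, and Keap1 mutant replicate 4 was the liver that overlapped with them from its own control group.

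With normal KEAP1 the knockout gave Slc1a2 a log2 difference of 0.32 (SE 0.36, adjusted p = 0.774). With mutant KEAP1 it gave -1.14 (SE 0.36, 95% CI -1.90 to -0.39, adjusted p = 0.158). The difference between the effects was -1.47 (SE 0.50, adjusted p = 0.373). The KEAP1 mutation among livers with AlbCre gave -1.26 (SE 0.36, 95% CI -2.02 to -0.51, adjusted p = 0.0786), or -1.13 with an adjusted p of 0.22 without compound mutant replicate 1. Glul, Oat and Slc1a2 were the 3 members whose Trsp knockout and compound mutant livers did not overlap, where 8.61% of all genes did not overlap in that comparison.

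The other pericentral members were a transporter and a pair of regulators. Tbx3 encodes a T-box repressor that is a target of β-catenin. Tbx3 log2 levels (ENSMUSG00000018604) were 9.14 to 9.65 in control livers, 8.45 to 10.19 in Trsp knockout livers, 8.99 to 10.63 in Keap1 mutant livers and 8.02 to 9.69 in compound mutant livers. Of the Keap1 mutant livers, 3 lay within 10.57 to 10.63 and replicate 4 was at 8.99. Tbx3 gave a log2 knockout difference of -0.36 (SE 0.43, adjusted p = 0.796) with normal KEAP1 and of -1.14 (SE 0.43, 95% CI -2.05 to -0.23, adjusted p = 0.247) with mutant KEAP1.

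Axin2 encodes a scaffold of the β-catenin destruction complex and is itself switched on by Wnt signalling, and it is often read as a gauge of that signal. Axin2 log2 levels (ENSMUSG00000000142) ranged from 6.32 to 8.34 over the 16 livers, with group means of 7.41, 6.93, 7.77 and 7.19 in control, Trsp knockout, Keap1 mutant and compound mutant livers. The log2 knockout differences were -0.49 (SE 0.36) and -0.58 (SE 0.36), with an average of -0.53 (95% CI -1.08 to 0.01, adjusted p = 0.382). Rhbg encodes an ammonium transporter of the pericentral hepatocyte membrane. Rhbg log2 levels (ENSMUSG00000104445) ranged from 6.54 to 8.18 on 68 to 318 reads per library. Its knockout differences of 0.12 and -0.31 on the log2 scale (SE 0.40 each) had signs that differed, and both lie within their standard errors.

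The log2 knockout differences of the periportal members lay between -0.13 and 0.62. Gls2 encodes liver glutaminase, which frees ammonium from glutamine on the portal side and so does the reverse of glutamine synthetase. Gls2 log2 levels (ENSMUSG00000044005) were 11.36 to 12.06 in control livers and 11.82 to 12.31 in Trsp knockout livers, a log2 difference of 0.38 (SE 0.23, adjusted p = 0.585). Keap1 mutant livers ranged from 11.53 to 12.18 and compound mutant livers from 11.30 to 12.51, a log2 difference of -0.04 (SE 0.23). All 4 groups overlapped with one another.

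Hal encodes histidine ammonia-lyase, the enzyme that opens histidine breakdown. Hal log2 levels (ENSMUSG00000020017) were 11.55, 11.49, 11.40 and 11.18 in control livers and 12.12, 12.46, 11.47 and 11.94 in Trsp knockout livers. They were 11.63, 11.58, 10.86 and 11.73 in Keap1 mutant livers and 10.86, 11.73, 10.61 and 12.07 in compound mutant livers. The knockout difference was 0.59 on the log2 scale (SE 0.29, adjusted p = 0.479) with normal KEAP1 and -0.13 (SE 0.29, adjusted p = 0.896) with mutant KEAP1. The KEAP1 mutation gave -0.68 (SE 0.29, adjusted p = 0.234) among livers with AlbCre.

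Sds encodes serine dehydratase, which turns serine into pyruvate. Sds log2 levels (ENSMUSG00000029597) ranged from 9.83 to 11.78, and control livers alone covered 9.83 to 11.61. Its log2 knockout differences of 0.62 and -0.06 (SE 0.41 each) were small against that spread.

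Hsd17b13 encodes a protein of the lipid droplet surface and had the lowest adjusted p of the members in the averaged KEAP1 comparison. Hsd17b13 log2 levels (ENSMUSG00000034528) were 11.004, 10.72, 11.71 and 10.65 in control livers and 11.44, 11.69, 11.08 and 11.52 in Trsp knockout livers. They were 12.06, 11.70, 11.44 and 12.09 in Keap1 mutant livers and 11.38, 12.03, 11.83 and 12.38 in compound mutant livers. Averaged over livers with and without AlbCre, the KEAP1 mutation gave a log2 difference of 0.64 (SE 0.17, 95% CI 0.27 to 1.0, adjusted p = 0.0746). Without AlbCre it was 0.80 (SE 0.24, adjusted p = 0.302) and with AlbCre 0.47 (SE 0.24, adjusted p = 0.33), and in both settings the groups overlapped.

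By zone, the 6 pericentral members split evenly in the knockout with normal KEAP1, with 3 lower, 3 higher and a median log2 difference of -0.12. With mutant KEAP1 all 6 were lower, with a median of -0.86, and 3 of them (Glul, Slc1a2 and Tbx3) had an unadjusted p under 0.05, which 7.08% of all genes had in that direction. The 4 periportal members were all higher with normal KEAP1 (median 0.50) and 3 of 4 lower with mutant KEAP1 (median -0.05). The medians over all tested genes lay between -0.015 and 0.0062 in the 7 comparisons. The 2 knockout comparisons share no liver, but members of a zone varied together from liver to liver, as given further on. No member of either zone passed the test, and 1 of the directions counted here, that of the periportal members with mutant KEAP1, turned with the scaling: Gls2 stood at 0.09 and Sds at 0.07 when libraries were scaled by their totals, a scaling that moved the median of all genes to 0.12.

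Without compound mutant replicate 1, the pericentral members stayed lower with mutant KEAP1 and the periportal ones turned their sign, apart from Hsd17b13, which was higher in both. The log2 knockout differences with mutant KEAP1 were then -1.16 for Glul (adjusted p = 0.139), -0.46 for Oat, -1.0 for Slc1a2 (adjusted p = 0.372), -0.24 for Rhbg, -0.75 for Axin2 and -1.28 for Tbx3 (adjusted p = 0.339), with 6 of 6 lower and a median of -0.88. All 4 periportal members were higher in place of 1 of 4, with a median of 0.16: Gls2 stood at 0.14, Hal at 0.02, Sds at 0.17 and Hsd17b13 at 0.26. For the KEAP1 mutation among livers with AlbCre, Glul stood at -0.68 (adjusted p = 0.354), Hal at -0.53 (adjusted p = 0.488) and Hsd17b13 at 0.65 (adjusted p = 0.264). The differences between the 2 knockout effects were -1.25 for Oat (adjusted p = 0.523) and -1.33 for Slc1a2 (adjusted p = 0.564). The averaged KEAP1 difference of Hsd17b13 was 0.72 (adjusted p = 0.0429), still under the minimum fold. No member passed the test in these fits.

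**Figure D2:**
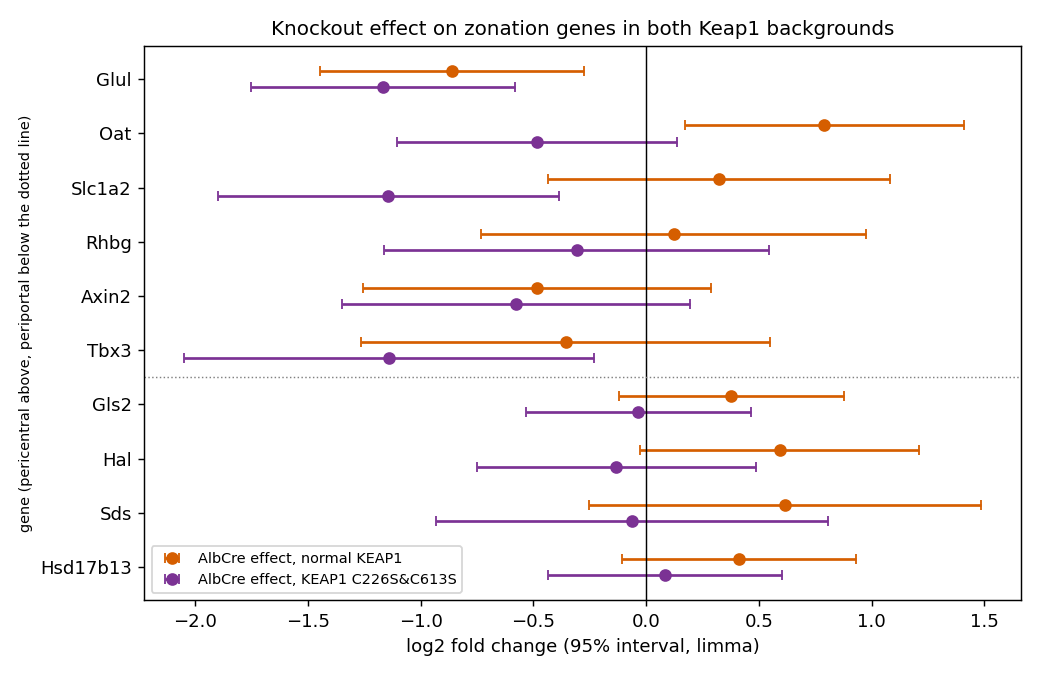
Log2 fold change between livers with and without AlbCre for the 10 zonation genes (horizontal axis, with 95% intervals from limma), in livers with normal KEAP1 (orange) and with KEAP1 C226S&C613S (purple). Glul lies below 0 in both (-0.86 and -1.16), while Oat and Slc1a2 have opposite signs (0.79 and -0.48 for Oat, 0.32 and -1.14 for Slc1a2).

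Beside the 6 members, 26 other pericentral genes were listed, among them Wnt targets and enzymes of drug and bile acid metabolism, and all were tested. In the knockout with mutant KEAP1, 25 of 26 were lower (median log2 difference -0.81, or -0.65 without compound mutant replicate 1) and 15 had an unadjusted p under 0.05, or 11 without compound mutant replicate 1, but 0 passed the test with limma or limma voom. With normal KEAP1, 17 of 26 were lower (median -0.24, 6 at an unadjusted p under 0.05) and 0 passed. The KEAP1 mutation gave 21 lower of 26 with AlbCre (median -0.62, 12 at an unadjusted p under 0.05, or -0.38 and 8 without compound mutant replicate 1) and 14 lower without AlbCre (median -0.01). The comparisons share livers, so their counts are not independent. Members of a zone also varied together from liver to liver, as given further on. The genes counted in a list, here and below, are therefore not independent observations either. At an unadjusted p under 0.05, 5.41% of all genes were lower in the knockout with normal KEAP1, 7.08% in that with mutant KEAP1 and 9.15% in the KEAP1 comparison with AlbCre. The hepatocyte marker sums given above were lowest in the compound mutant livers too, and their part in these counts was not tested.

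Of the 26, Cyp2c50 and Cyp2c54, which belong to a family of P450 enzymes with close copies whose reads may be shared, passed in a KEAP1 comparison. Cyp2c50 fell in compound mutant livers compared with Trsp knockout livers (log2 difference -2.58, SE 0.41, adjusted p = 0.00323) and passed in 13 of 16 fits that left out 1 liver. The fits in which it did not pass left out Trsp knockout replicate 1, Trsp knockout replicate 4 or compound mutant replicate 3, with an adjusted p of at most 0.0175. Cyp2c54 fell in the averaged KEAP1 comparison (-3.37, SE 0.47, adjusted p = 0.000932) and passed in 16 of 16 such fits. Chosen after their values were seen, Cyp1a2, an enzyme that clears caffeine, had a log2 knockout difference of -1.67 (SE 0.40, adjusted p = 0.0694) with mutant KEAP1 and of -0.27 (SE 0.40, adjusted p = 0.844) with normal KEAP1. Cyp2e1, an ethanol-oxidizing enzyme picked in the same way, had -0.95 (SE 0.40, adjusted p = 0.302) and -0.02 (SE 0.40, adjusted p = 0.988).

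Of 20 other periportal genes, 17 were higher in the knockout with normal KEAP1 (median log2 difference 0.36) and 13 lower with mutant KEAP1 (median -0.13, or 10 lower and 10 higher with a median of 0.0083 without compound mutant replicate 1), and 0 passed in either with limma or limma voom, where 4 and 6 had an unadjusted p under 0.05. Of all genes, 11 and 13.6% had such a p. The KEAP1 mutation with AlbCre gave 16 lower of 20 (median -0.44), 9 of them at an unadjusted p under 0.05. Without compound mutant replicate 1 that count was 3 and the median -0.26. Mfsd2a, which carries lysophospholipids into cells, fell in compound mutant livers compared with Trsp knockout livers (-3.98, SE 0.69, adjusted p = 0.00611). Its normalized counts were 151 to 448 in Trsp knockout livers and 0 to 67.0 in compound mutant livers, and it passed in 8 of 16 fits that left out 1 liver, with an adjusted p of at most 0.0298. Without compound mutant replicate 1 it stood at -3.30 with an adjusted p of 0.0163. Aspg, an asparaginase named here after its values were seen, was higher by 0.94 (SE 0.18, adjusted p = 0.0201) with normal KEAP1 and by 0.83 (SE 0.18, adjusted p = 0.0396) with mutant KEAP1, each under the minimum fold.

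**Figure D3:**
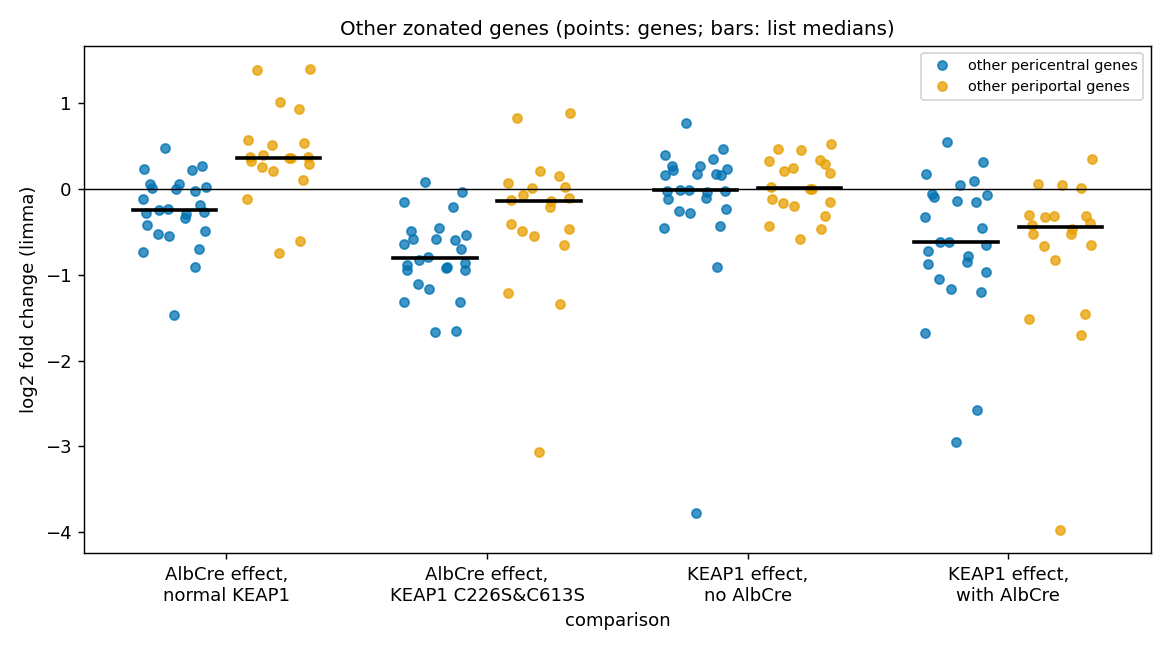
Log2 fold change (vertical axis, limma) of 26 other pericentral (blue) and 20 other periportal genes (orange) in 4 comparisons of genotypes. Points are genes and black bars list medians. The pericentral median is -0.24 for the AlbCre effect with normal KEAP1 and -0.81 with KEAP1 C226S&C613S, and the periportal medians are 0.36 and -0.13.

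The pathways that the members serve were read from further lists, which share genes with those above and are not independent of them. Cps1, Ass1, Asl and Arg1 of the urea cycle are also among the other periportal genes. So are Uroc1 and Agxt of histidine and serine catabolism. Lgr5, Rnf43, Znrf3 and Notum of the Wnt list, and Nkd1 and Sp5 of the β-catenin list, are also among the other pericentral genes. In the urea cycle, all 8 genes were higher in the knockout with normal KEAP1 (median log2 difference 0.25) and 7 of 8 lower with mutant KEAP1 (median -0.20, or 5 of 8 and -0.16 without compound mutant replicate 1). With limma and with limma voom 0 of 8 passed, and at an unadjusted p under 0.05 limma had 1 in the first comparison and 2 in the second, where 11 and 13.6% of all genes had such a p. Arg1, the arginase that releases urea, had 0.52 (SE 0.17, adjusted p = 0.258) and 0.15 (SE 0.17, adjusted p = 0.771), and Otc, which makes citrulline, had 0.05 (SE 0.15, adjusted p = 0.927) and -0.48 (SE 0.15, adjusted p = 0.146). Cps1, the entry enzyme of the cycle, had 0.32 and -0.47 (SE 0.36 each), and Slc25a13, a mitochondrial aspartate-glutamate carrier, had 0.15 and -0.56 (SE 0.25 each).

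Of 22 genes of glutamine, glutamate, ornithine and proline handling, 20 were tested and 1 passed in a knockout comparison. Slc1a4, a carrier of alanine and serine, fell in knockout livers averaged over both Keap1 genotypes (-1.06, SE 0.19, adjusted p = 0.00858), with -1.07 and -1.05 in the separate comparisons. Its call was narrow, and held in 3 of 16 fits that left out 1 liver (adjusted p at most 0.0252). Among 14 genes of histidine and serine catabolism 0 passed with limma or limma voom, and at an unadjusted p under 0.05 limma had 3 in either knockout comparison, or 2 in that with mutant KEAP1 without compound mutant replicate 1. Of all genes, 11% had such a p with normal and 13.6% with mutant KEAP1. Tdo2, which opens tryptophan breakdown, had a log2 knockout difference of 0.99 (SE 0.24, adjusted p = 0.0936) with normal KEAP1 and -0.41 (SE 0.24, adjusted p = 0.49) with mutant KEAP1. Sdsl, a close relative of Sds, had an average of 0.76 (SE 0.18, adjusted p = 0.0386). Uroc1, which follows Hal in histidine breakdown, had 0.37 with normal and -0.49 with mutant KEAP1 (SE 0.23 each), which average to -0.06 (SE 0.16). The difference between these effects on Uroc1 was -0.86 (SE 0.33, adjusted p = 0.405). Gldc of the glycine cleavage system had 0.54 and -0.09 (SE 0.20 each), with an average of 0.22 (SE 0.14) and a difference of -0.64 (SE 0.28, adjusted p = 0.452).

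Of 20 Wnt ligands, receptors and secreted modulators, 0 passed in any comparison with limma or limma voom, and at an unadjusted p under 0.05 limma had 1 with normal KEAP1, 3 with mutant KEAP1 and 4 for the averaged knockout. Of all genes, 11, 13.6 and 13.8% had such a p in these comparisons. Notum, a secreted enzyme that inactivates Wnt ligands and is itself a Wnt target, had an average log2 knockout difference of -0.92 (SE 0.22, adjusted p = 0.0473). Lgr5, the receptor of R-spondins on pericentral hepatocytes, had -0.81 (SE 0.21, adjusted p = 0.067), the co-receptor Lrp5 had -0.27 (SE 0.09, adjusted p = 0.132) and the receptor Fzd5 had 0.38 (SE 0.14, adjusted p = 0.238). Of 20 genes of the destruction complex and the nuclear partners of β-catenin, Pygo1, a nuclear adaptor, fell in the knockout with normal KEAP1 (-1.16, SE 0.19, adjusted p = 0.00732). It rose with the KEAP1 mutation among livers with AlbCre (1.13, SE 0.19, adjusted p = 0.00495), a comparison that shares the Trsp knockout livers with the first. The first call held in 3 of 16 fits that left out 1 liver (adjusted p at most 0.0279) and the second in 10 of 16 (adjusted p at most 0.0208, and 0.0208 without compound mutant replicate 1). The difference of the 2 knockout effects on Pygo1 was 0.99 (SE 0.27, adjusted p = 0.267). With limma voom, neither call of Pygo1 passed (adjusted p = 0.0211 and 0.0119), nor did those of Slc1a4 (adjusted p = 0.0141) and Mfsd2a (adjusted p = 0.0275), all in the same direction, while those of Cyp2c50 and Cyp2c54 did.

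Within a genotype, livers differed in zonation genes more than in most genes. The median SD within genotypes was 0.51 over the 10 members and 0.30 over all genes tested, on the log2 scale. The same livers were extreme for many members. Keap1 mutant replicate 4 was the lowest of its genotype in 6 of 6 pericentral members and the highest in 4 of 4 periportal ones. Compound mutant replicate 4 was the highest of its genotype in 4 of 4 periportal members and the lowest in 3 of 6 pericentral ones. Control replicate 3 was highest in 3 of 4 and lowest in 4 of 6, and Trsp knockout replicate 2 was highest in 4 of 4 and lowest in 2 of 6.

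Pairs of members were therefore correlated across the 16 livers after each genotype's mean was removed, with 45 pairs and permutation tests adjusted over them. Over all 16 livers, the 15 pericentral pairs were all positive (median Pearson's r 0.49) and the 6 periportal pairs too (median 0.78), whereas 22 of 24 pairs across the zones were negative (median -0.25). These signs did not all hold among livers with normal KEAP1. Slc1a2 and Rhbg had r = -0.31 there and 0.97 with mutant KEAP1, and Axin2 and Hal, a pair across the zones, had 0.39 and -0.35. At an adjusted p under 0.05, 8 of 45 pairs passed by Pearson's r and 6 by Spearman's rho. The genes of a pair share each liver's library and its scaling.

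Gls2 and Hsd17b13 were the closest pair, with r = 0.90 (permutation p = 2e-05, adjusted p = 0.0009) and rho = 0.91 (permutation p = 5e-05, adjusted p = 0.00203). Without the 2 livers farthest from the median of Gls2, r was 0.87, and within livers of normal and of mutant KEAP1 it was 0.88 and 0.97. Oat and Slc1a2 followed with r = 0.86 (permutation p = 0.00027, adjusted p = 0.00607) and rho = 0.91 (permutation p = 9e-05, adjusted p = 0.00203), and r was 0.83 without the 2 farthest livers, 0.89 with normal and 0.92 with mutant KEAP1. Of these 2 genes, Slc1a2 holds the searched letters in the promoter window shown above and Oat does not.

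Of the other 4 periportal pairs that passed by r, Gls2 and Sds had r = 0.82 (adjusted permutation p = 0.0081) and rho = 0.70 (adjusted permutation p = 0.0659). This pair passed in 18 of 18 alternatives, with r from 0.77 to 0.89, and Oat and Slc1a2 in 17 of 18. Sds and Hsd17b13 had r = 0.81 (adjusted permutation p = 0.0193) and passed in 14 of 18. Gls2 with Hal (r = 0.75) and Hal with Hsd17b13 (r = 0.67) passed as well, but only in 7 and 8 of 18 alternatives. Among livers with normal KEAP1 their r was 0.41 and 0.49, against 0.88 and 0.83 with mutant KEAP1.

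Axin2 and Tbx3 gave r = 0.74 (permutation p = 0.00373, adjusted p = 0.0336) and rho = 0.75 (permutation p = 0.00243, adjusted p = 0.0327). Their r was 0.52 without the 2 farthest livers and 0.40 among livers with normal KEAP1, against 0.95 with mutant KEAP1. Without the replicate 4 livers it was 0.40 too. Replicate 4 was the lowest of its genotype for Axin2 in 4 of 4 genotypes and for Tbx3 in 3. The part of this in their correlation was not tested. The pair of opposite enzymes, Glul and Gls2, gave r = -0.63 (adjusted permutation p = 0.042) and rho = -0.57 (adjusted permutation p = 0.14), so that it passed by r and not by rho, and r was -0.49 without the 2 farthest livers. Of 18 alternatives, Axin2 with Tbx3 passed in 11 and Glul with Gls2 in 6. The number of pairs that passed by r ranged from 2 to 12 when 1 liver was left out, with 2 pairs left without Keap1 mutant replicate 4 and 3 without Keap1 mutant replicate 3 or without compound mutant replicate 4.

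**Figure D4:**
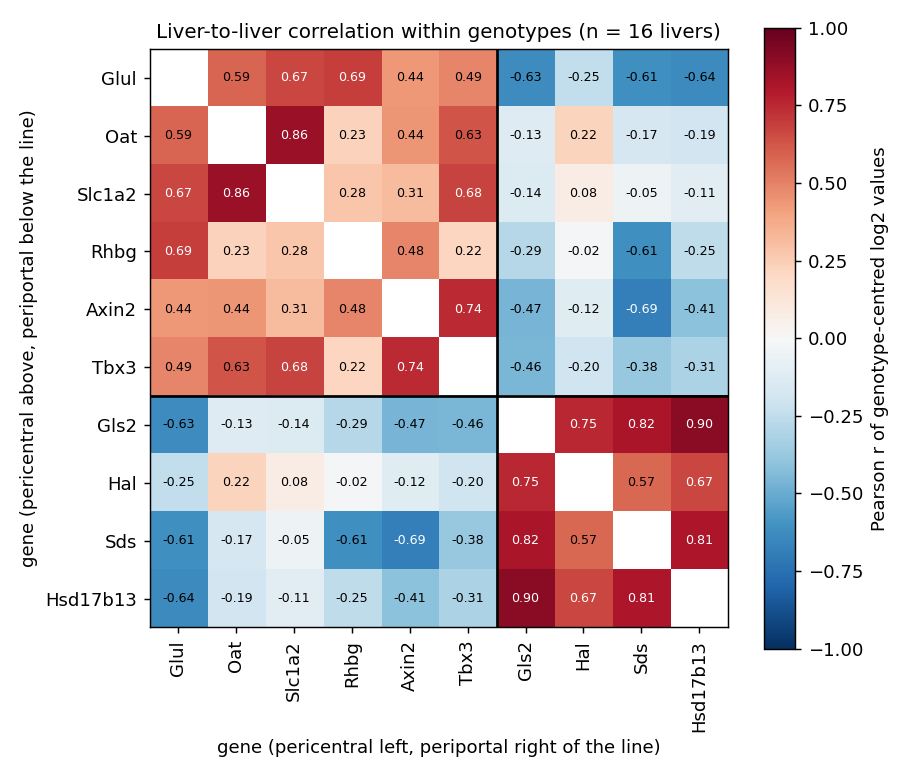
Pearson's r between each pair of zonation genes over 16 livers, after the mean of each genotype was subtracted from the log2 values. Red is positive and blue negative, with pericentral genes left of and above the black lines. The block of periportal pairs is red throughout (0.57 to 0.90), as is that of pericentral pairs (0.22 to 0.86), and 22 of the 24 pairs across zones are negative.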

How the data were processed

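Total RNA of 16 livers was rRNA-depleted, and libraries were made with a directional kit. The authors quantified reads with Salmon against mouse GENCODE transcripts, as the study's methods state. The deposited values are log2 values, which equal log2(reads / size factor + 4). Reads were recovered from them (100% of low values whole within 0.1). Of 18578 rows, 369 name no gene. Tests ran over the 15781 genes that reached a normalized count of 10 in 4 or more libraries, on the deposited log2 values, since the table held log2 values and not the counts first planned for. limma 3.58.1 in R 4.3.3 was fitted to all 16 libraries and 7 contrasts with a mean-variance trend, and p-values were Benjamini-Hochberg adjusted over all tested genes. Correlations used 100000 permutations in Python 3.11.15, numpy 2.4.6, pandas 2.3.3 and scipy 1.17.1, with figures from matplotlib 3.10.9. All calls used a log2 difference beyond 1 and an adjusted p under 0.01. The members and all gene lists were chosen with earlier results of these data known. Besides the members, genes named are those of each list that passed the test in any contrast, or otherwise up to 4 with the lowest p in the averaged knockout effect or the difference between knockout effects. Exceptions are stated. The 5 genes most like Glul and Hal by Pearson's r are named in the closing section. The scripts were tested on simulated data. Alternatives were a constant of 1, no filter, quantile normalization, scaling by library totals, limma voom on recovered reads, a replicate block, fits of only the compared groups, an adjusted p under 0.05 and leaving out each liver. An RNA count of a whole liver measures all its cells.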

Additional observations from a re-analysis of the deposited data

Results flagged for a closer look

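In the 40 groups of 4 livers that 10 genes and 4 genotypes make, 2 held a liver far from its 3 companions by Dixon's criterion, which chance alone gives in about 1 of 20 groups. Tbx3 had a log2 level of 8.99 in Keap1 mutant replicate 4, while the other 3 livers of the genotype lay between 10.57 and 10.63. This liver was also the lowest of its genotype for the other 5 pericentral members. Gls2 had a log2 level of 12.31 in Trsp knockout replicate 2, while the other 3 lay between 11.82 and 11.89. The knockout effect on Oat differed between the Keap1 genotypes by -1.27 on the log2 scale, an interaction that missed the threshold in limma after adjustment over all tested genes (adjusted p = 0.359). The knockout effect was 0.79 with normal KEAP1 and -0.48 with mutant KEAP1.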

How the results depend on the processing

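Scaling, filter, constant, tool and fitted groups left the number of members that passed at 0 in every comparison they were run for, which are 7 except for the fits of only the compared groups, run for the 4 comparisons of genotype pairs. At an adjusted p under 0.05, with or without the minimum fold, Oat passed in the KEAP1 comparison with AlbCre (a count of 1) and Glul in the averaged knockout comparison (a count of 1). Leaving out 1 liver gave 0 to 1 members in the averaged knockout comparison and 2 to 12 correlated pairs. Small differences turned their sign. With quantile normalization, Gls2 and Sds stood at 0.12 and 0.00938 in the knockout with mutant KEAP1, Oat at -0.061 for the KEAP1 mutation without AlbCre and Gls2 at 0.0902 for it with AlbCre. With library totals, Gls2 and Sds stood at 0.0947 and 0.0668, Oat at -0.00053, Tbx3 at 0.0481 for the KEAP1 mutation with AlbCre and Axin2 at 0.0358 for the difference of knockout effects. With limma voom, Oat stood at -0.0063 for the KEAP1 mutation without AlbCre. The cause of these turns was not tested. Leaving out 1 liver moved Rhbg over -0.12 to 0.43 in the knockout with normal KEAP1. In the knockout with mutant KEAP1 it moved Gls2 over -0.26 to 0.14, Hal over -0.39 to 0.10, Sds over -0.36 to 0.17 and Hsd17b13 over -0.077 to 0.26. For the KEAP1 mutation without AlbCre, Oat ranged over -0.19 to 0.23, Rhbg over -0.0075 to 0.55 and Hal over -0.0489 to 0.24, and with AlbCre Tbx3 over -0.31 to 0.27 and Gls2 over -0.36 to 0.0414. Axin2 ranged over -0.38 to 0.20 in the difference of knockout effects, Rhbg over -0.25 to 0.063 in the averaged knockout, and Rhbg, Gls2 and Sds over -0.13 to 0.18, -0.0432 to 0.16 and -0.0786 to 0.25 in the averaged KEAP1 comparison.

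The labels do not say whether same-numbered livers shared a litter or a day, and this was not tested. Over 24 same-numbered pairs the deviations from group means correlated weakly, at -0.32 to 0.31 (median -0.04), with 4 over 0.1. Axin2 is an exception as a single gene: its level was lowest in replicate 4 in 4 of 4 genotypes and highest in replicate 1 in 3, and Tbx3 was lowest in replicate 4 in 3. With a replicate block, 0 members passed in each comparison, Glul had an adjusted p of 0.037 and Axin2 of 0.038 (0.382 without the block) in the averaged knockout, and Oat 0.042 for the KEAP1 mutation with AlbCre. With 4 livers per genotype and SDs near 0.51, a difference smaller than the distance from the estimate to either end of its interval could not be told from 0. Rhbg and Axin2 rested on as few as 68 and 76 reads per library.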

Other observations

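Lipid droplet proteins, the clock and fasting genes bear on readings of Hsd17b13, Sds and Hal. Of 15 lipid droplet genes 13 were tested, and Fitm1, a protein of droplet formation, fell with the KEAP1 mutation among livers with AlbCre (log2 difference -2.54, SE 0.43, adjusted p = 0.00517) and averaged over both (-2.0, SE 0.31, adjusted p = 0.0019). The first passed in 11 of 16 fits that left out 1 liver, and without compound mutant replicate 1 it had an adjusted p of 0.0224. With limma voom the averaged difference passed (adjusted p = 0.00823) and the first did not (adjusted p = 0.0226). Of 14 fasting and glucocorticoid genes, Tsc22d3, a glucocorticoid-induced leucine zipper, fell in knockout livers averaged over both Keap1 genotypes (-1.10, SE 0.19, adjusted p = 0.00677), which held in 5 of 16 such fits and not with limma voom (adjusted p = 0.0101). Of 13 clock genes 0 passed with limma or limma voom, and 0 had an unadjusted p under 0.05 in either knockout comparison. The SEs of their knockout differences ran from 0.23 for Clock to 1.14 for Dbp, and the wider ones leave room for large differences. With the KEAP1 mutation among livers with AlbCre, 2 did, where 17.6% of all genes did: Nr1d1 had a log2 difference of -2.07 (SE 0.67, adjusted p = 0.128) and Cry1 of 1.21 (SE 0.36, adjusted p = 0.0908). In the knockout comparisons Nr1d1, a clock repressor, had log2 knockout differences of 1.06 and -0.42 (SE 0.67 each), Nr1d2, its relative, of 0.89 and 0.13 (SE 0.54 each), Cry1, another repressor, of -0.70 and 0.12 (SE 0.36 each), and Hlf, a clock output factor, of -0.45 and -0.58 (SE 0.40 each).

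Among immune markers, Cd79a, part of the B cell receptor, rose with the KEAP1 mutation averaged over both (1.22, SE 0.23, adjusted p = 0.00973), which held in 3 of 16 fits that left out 1 liver and not with limma voom (adjusted p = 0.0267). The 3 B cell markers summed to 40.3 to 79.9 normalized counts in control, 35.4 to 65.4 in Trsp knockout, 97.9 to 193 in Keap1 mutant and 60.6 to 189 in compound mutant livers. The 5 erythroid markers summed to 802 to 2003, 496 to 772, 459 to 756 and 521 to 3124 in the same order.

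By likeness of log2 levels over the 16 livers, the 5 genes nearest to Glul were Gm49431 (Pearson's r 0.90), Gm38811 (0.88), Lect2 (0.86), Pcp4l1 (0.85) and Capza1-ps1 (0.85), and those nearest to Hal were Slc25a15 (0.90), Tmem230 (0.87), Etnppl (0.86), Slc25a39 (0.85) and Myh14 (0.85). Lect2 is on the list of other pericentral genes, Etnppl on that of other periportal genes and Slc25a15, an ornithine carrier, on that of the urea cycle. After genotype means were removed, the nearest to Glul were Zfp956 (0.88), Rffl (0.87), Nxpe2, Rmdn2 and Carmil1 (0.86 each), and to Hal Cdhr5 (0.93), Cpsf1 (0.88), Steap3, Slc25a15 and Retreg2 (0.87 each). These are descriptions over 16 livers, picked as the highest correlations over the 15781 tested genes.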
